A study of Mus musculus with 12 samples.

Results

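A set of 50 genes of the G2 phase and of mitosis was followed in cultured mouse podocytes exposed to fluid flow. The genes were listed by name, and 46 of them were measured, of 14860 genes that the deposited table names in a row with 1 gene symbol. Where several rows carried a gene, the row with the highest mean was used. Ccnb1, Cenpf and Ncapg had no row with 1 symbol, and Foxm1 was only in a row that names several genes. Each sample is 1 Affymetrix mouse exon array summarised to gene level, and its values are on a log2 scale, on which a difference of 1 is a 2-fold difference. The cells came from a conditionally immortalized line that carries the thermosensitive tsA58 T antigen and was obtained from the Immortomouse. All groups share this line, its growth at 33 °C with γ-interferon and its differentiation at 37 °C without it, and all were used on day 14. Fluid flow shear stress (FFSS) of 2 dynes/cm2, a flow of 75 ml/min, was applied for 2 h, and sheared slides went back to their own medium to recover. The 4 groups were unsheared cells (Control), cells harvested when shear ended (End), and cells harvested 2 h (Post-2hr) and 24 h (Post-24hr) after it, with 3 arrays numbered 1 to 3 in each. The labels call the Control cells both untreated and harvested before shear, and they name no unsheared cells harvested 24 h later, so shear and the added time in culture cannot be told apart at Post-24hr. Nothing in the labels states that arrays of 1 group came from separate cultures; the p-values therefore measure only the spread among these arrays, part or all of which may be technical.

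The genes of this set are switched on together as cells leave S phase. Cyclins A and B activate the kinase CDK1, the polo and Aurora kinases build and police the spindle, kinesins move chromosomes and spindle fibres, and the anaphase-promoting complex ends mitosis by marking cyclins and securin for destruction. In resting cells the MuvB complex represses many of these promoters, and in dividing cells MuvB with B-MYB and FOXM1 activates them. Podocytes are the epithelial cells that wrap the filtering capillaries of the glomerulus, and mature ones rarely divide. In the cultured line, the T antigen, which inactivates p53 and the retinoblastoma family, keeps cells dividing at the low temperature and is lost at the high one. Arrays of RNA from whole cultures measure a mean over cells, so fewer cells in G2 and mitosis cannot be told apart from less of these RNAs in each cell.

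Across the 23332 rows of the table the array medians lay between 6.93 and 7.11, and 0 of 46 members had a mean over the 12 arrays under the lower quartile of row means, 5.27. On single replicate 1 arrays 4 members fell under it: Cdc25c on 3 arrays, and Aspm, Hmmr and Mki67 on 1 each, with none under it in replicates 2 and 3; how far this low signal limits their differences was not tested. The replicate 1 arrays of all 4 groups stood apart from the others, and every comparison is therefore also given within the replicate numbers. The label of the cells was checked against markers. Wt1, a podocyte transcription factor, lay between 7.19 and 7.54, and Nphs1, which encodes nephrin of the slit diaphragm, between 6.55 and 6.89, near the array medians. Of 11 podocyte genes measured 1, Ptpro (mean 4.68), lay under the lower quartile, while Actn4 and Cd2ap had means of 13.06 and 12.45. The tubule genes Slc34a1 and Aqp2 had means of 6.53 and 7.67, so levels like those of Wt1 and Nphs1 do not by themselves mark podocytes. Of markers of other cell types, 4 of 7 macrophage genes (Ptprc at 3.86 to 4.09 among them), 3 of 8 endothelial genes, 1 of 7 mesangial or fibroblast genes and 1 of 6 tubule genes had means under the lower quartile. Others lay well above it: Cd68 of macrophages ran from 7.05 to 9.91, Pdgfrb of mesangial cells and fibroblasts from 10.34 to 11.46, and Cdh16, a cadherin of kidney tubules, from 10.41 to 12.59.

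A property that the gene list did not use is the promoter. RefSeq windows (GRCm38.p6) from 250 bases before to 50 after the start were given for 42 of the 50 genes, in 44 windows, and not for Aurkb, Ccna2, Cdc25c, Dlgap5, Fam64a, Foxm1, Kif20a and Tpx2. The windows were searched on both strands for TTTGAA or TTCGAA, the letters of the cell cycle genes homology region that MuvB contacts, and for CCAAT, the letters bound by NF-Y. The first set of letters was present in 35 of 44 member windows (79.5%), against 6316 of all 32851 windows of the table (19.2%). Ect2 and Prc1 had 2 windows each, alike in their numbers of matches. Each therefore counts 2 times in this share and in the values that follow. CCAAT was present in 75% of the member windows, against 37.4% of all windows. Both were present in 68.2% of the member windows and 7.52% of all windows, and neither in 13.6% and 50.9%. The 2 motifs overlapped in 1 member window (2.27%) and in 0.146% of all windows. In the 30 windows with both, the nearest pair was separated by a median of 20.5 bases (range -1 to 141, a negative value being an overlap). The following windows run from 130 bases before to 20 after the start, on the strand of the gene, with every match of these letters or of their reverse complements in capitals. The first 5 belong to members described below that were lower in replicate 1 and higher at Post-24hr in replicates 2 and 3, and Kif18a is shown because it was the only member that was not lower in replicate 1.
Cdk1, chr10:69352893-69353042, minus strand: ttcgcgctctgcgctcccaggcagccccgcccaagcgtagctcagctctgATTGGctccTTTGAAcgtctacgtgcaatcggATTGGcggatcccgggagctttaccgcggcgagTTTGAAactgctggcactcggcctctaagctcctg
Ccnb2, chr9:70421535-70421684, minus strand: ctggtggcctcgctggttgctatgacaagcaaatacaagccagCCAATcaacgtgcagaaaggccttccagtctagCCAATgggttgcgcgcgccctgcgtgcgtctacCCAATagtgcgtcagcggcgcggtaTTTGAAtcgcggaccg
Cdc20, chr4:118437324-118437473, minus strand: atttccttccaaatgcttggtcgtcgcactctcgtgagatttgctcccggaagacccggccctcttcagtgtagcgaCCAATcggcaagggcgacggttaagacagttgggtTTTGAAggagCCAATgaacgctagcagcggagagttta
Hmmr, chr11:40733418-40733567, minus strand: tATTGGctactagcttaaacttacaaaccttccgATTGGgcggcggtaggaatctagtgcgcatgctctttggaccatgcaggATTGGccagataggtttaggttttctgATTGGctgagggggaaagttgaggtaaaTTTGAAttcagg
Top2a, chr11:99024170-99024319, minus strand: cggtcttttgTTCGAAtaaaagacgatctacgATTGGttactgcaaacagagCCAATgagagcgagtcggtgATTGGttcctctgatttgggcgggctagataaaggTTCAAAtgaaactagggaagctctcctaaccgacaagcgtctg
Kif18a, chr2:109280608-109280757, plus strand: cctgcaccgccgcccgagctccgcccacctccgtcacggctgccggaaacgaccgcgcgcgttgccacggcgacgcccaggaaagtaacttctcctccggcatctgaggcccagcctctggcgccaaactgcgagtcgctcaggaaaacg

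In the Cdk1, Ccnb2, Hmmr and Top2a windows as shown, the homology letters nearest the start lie downstream of every CCAAT match, whichever strand that match is on. In the Cdc20 window a CCAAT match follows them. The Kif18a window holds neither set of letters in the 150 bases shown nor in its full window, which says nothing about the factors that act there. The full windows of Birc5, Melk, Ncaph, Nuf2 and Nusap1 also held neither. In these genes all replicate 1 arrays lay below all arrays of replicates 2 and 3, so lacking the letters did not set Kif18a apart. These matches describe the sequence and are not sites measured in these cells.

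The median level of the set separated the arrays by replicate number. On the replicate 1 arrays the median of the 46 genes was 6.93 in Control, 6.92 at End, 6.73 at Post-2hr and 6.81 at Post-24hr. On the replicate 2 arrays it was 7.56 in Control, 7.57 at End, 7.57 at Post-2hr and 8.88 at Post-24hr. On the replicate 3 arrays it was 7.95 in Control, 8.19 at End, 8.19 at Post-2hr and 8.62 at Post-24hr. All 4 replicate 1 arrays thus lay below the other 8, and the Post-24hr arrays of replicates 2 and 3 were the highest of the 12. The heat map by role shows the same picture gene by gene.

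**Figure D1:**
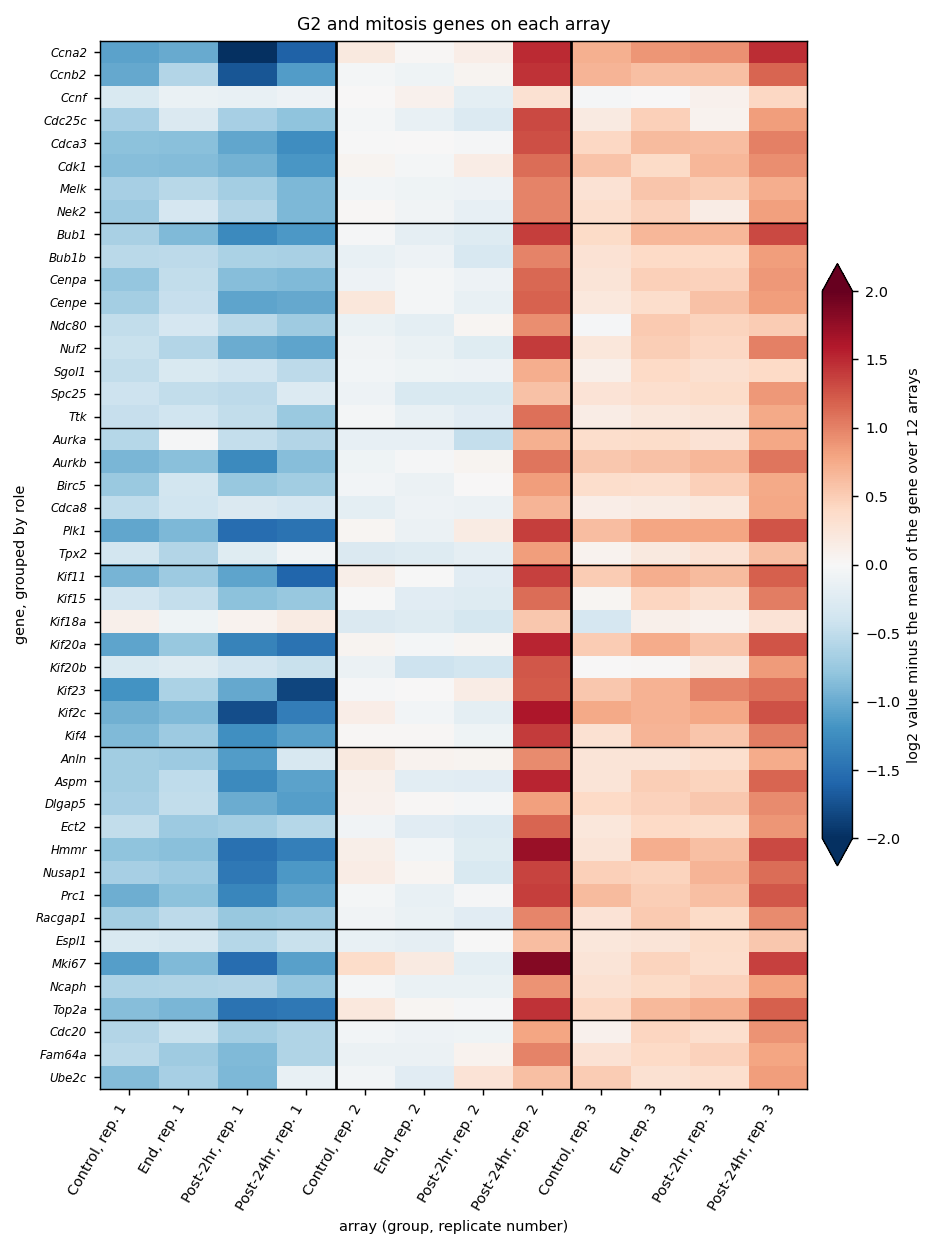
Each row is 1 of the 46 measured genes, grouped by role and separated by thin lines, and each column is 1 of the 12 arrays, grouped by replicate number. Colour is the log2 value minus the mean of that gene over the 12 arrays. The 4 replicate 1 columns are blue for nearly all genes, and the Post-24hr columns of replicates 2 and 3 are the darkest red.

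At 24 h after shear, the mean of every member was higher than in Control, but no member passed the test. The median change of the 46 genes, Post-24hr minus Control, was 0.52, against 0.00 over all rows, and the changes ran from 0.28 for Dlgap5, a spindle protein, to 0.86 for Mki67. With limma and Benjamini-Hochberg adjustment over all rows, 0 of 46 members passed an adjusted p of 0.05, where 0% of all rows passed; an ordinary linear model also called 0. At an unadjusted p under 0.05 there were 2 of 46 members, Kif18a and Tpx2, against 561 of 23332 rows. The Post-24hr mean was the highest of the 4 group means in 46 of 46 members, against 27.1% of all rows. The spread within Post-24hr was also the widest of the 4 groups in 43 of 46 members, against 23.5% of all rows.

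Mki67, whose product Ki-67 coats mitotic chromosomes and marks dividing cells, read 5.29, 8.21 and 7.74 at Post-24hr (replicates 1 to 3), against 5.27, 6.75 and 6.64 in Control. The change was 0.86 ± 0.78 (SE, limma, adjusted p = 1), and it was 1.76 without Post-24hr replicate 1 and 0.29 without Post-24hr replicate 2. The replicate 1 pair was level, while the Post-24hr arrays of replicates 2 and 3 exceeded all Control arrays. Hmmr, a spindle protein that also binds hyaluronan, had 5.34, 8.44 and 8.03 at Post-24hr and 5.91, 6.83 and 6.97 in Control, a change of 0.70 ± 0.80 (SE, limma, adjusted p = 1). Its replicate 1 value was lower after 24 h and both other values were higher, so the groups overlapped. Kif20b, a kinesin of cytokinesis, gave 6.20, 7.88 and 7.49 at Post-24hr, against 6.33, 6.52 and 6.64 in Control, a change of 0.69 ± 0.36 (SE). Tpx2, the spindle factor that activates Aurora A, gave 8.78, 9.69 and 9.46 at Post-24hr, against 8.48, 8.57 and 8.92 in Control, a change of 0.66 ± 0.27 (SE). Tpx2 was higher in all 3 replicate numbers, but its replicate 1 value at Post-24hr lay under the replicate 3 Control value.

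Of the 46 members 1 (2.17%) had Post-24hr arrays that all lay above the Control arrays, no more than the 2.7% of all rows. That member was Kif18a, a kinesin that damps chromosome movements at metaphase. It read 6.60, 6.99 and 6.72 at Post-24hr and 6.55, 6.16 and 6.10 in Control, a change of 0.50 ± 0.17 (SE, limma, unadjusted p = 0.0164, adjusted p = 1). Its replicate 1 pair differed by only 0.04. When limma weighted the arrays by their spread, Kif18a was also the 1 member past the threshold in the test for any difference among the 4 groups (adjusted p = 0.0461). That fit called 11.6% of all rows, a larger share than 1 of 46 members. Without weights 0 members passed, against 0.00857% of all rows. The weights were 5.86 for Control replicate 2 and 5.27 for Post-2hr replicate 3, against 0.34 to 1.49 for the other arrays. The weighted means of those groups thus rested mostly on 1 array each.

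The central kinases showed the same split by replicate number at Post-24hr. Cdk1 read 8.37, 10.65 and 10.46 at Post-24hr and 8.69, 9.59 and 10.11 in Control. Plk1, the polo kinase that starts spindle assembly, read 7.76, 10.62 and 10.50 at Post-24hr and 8.20, 9.28 and 9.86 in Control. Aurkb, the kinase of the chromosomal passenger complex, read 8.08, 10.01 and 10.01 at Post-24hr, against 8.02, 8.86 and 9.48 in Control. In these 3 genes, replicates 2 and 3 were higher after 24 h and replicate 1 was lower or nearly level. Top2a, the topoisomerase that untangles chromosomes, read 6.80, 9.67 and 9.41 at Post-24hr and 7.37, 8.44 and 8.64 in Control. Cdc20, the activator of the anaphase-promoting complex, read 7.72, 9.11 and 9.22 at Post-24hr and 7.74, 8.28 and 8.42 in Control. For both, the replicate 1 array at Post-24hr was the lowest of the 6 values.

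Within the replicate numbers the direction split. In replicate 1, 36 of 46 members were lower at Post-24hr than in Control, against 50.3% of all rows, with a median change of -0.15 (range -0.65 to 0.70). In replicate 2 all 46 were higher, against 51% of all rows, with a median of 1.15, and 31 were more than 2-fold higher, against 1.8% of all rows. In replicate 3 all 46 were higher, against 50.3% of all rows, with a median of 0.61; Hmmr and Mki67 were more than 2-fold higher, against 1.72% of all rows. The pattern of higher in replicates 2 and 3 but lower in replicate 1 held for 36 of 46 members and 17.6% of all rows.

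**Figure D2:**
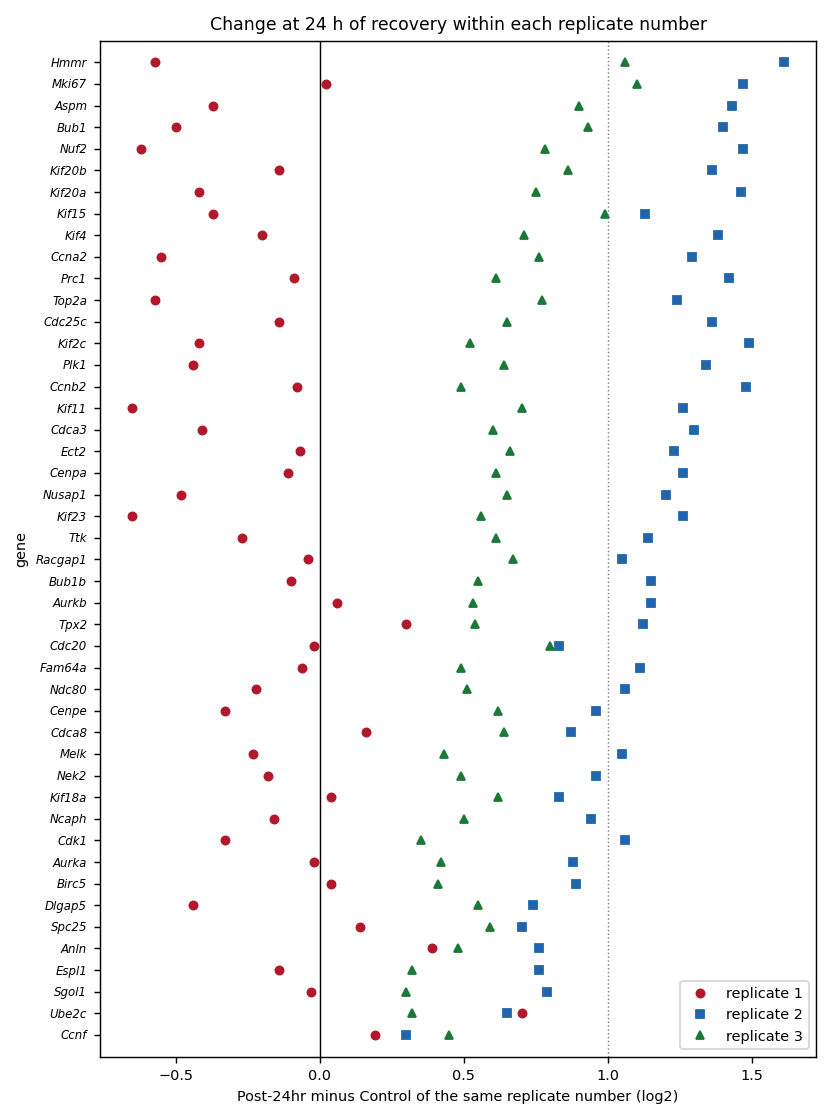
Each row is a gene, sorted by its mean change in replicates 2 and 3, and the horizontal axis is the log2 value at Post-24hr minus that in Control of the same replicate number (circles, replicate 1; squares, replicate 2; triangles, replicate 3; dotted line, 2-fold). All squares and triangles lie right of 0, and 36 of the 46 circles lie left of it.

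At Post-24hr the replicate 2 and 3 arrays were both above all other 10 arrays in 44 of 46 members, against 2.07% of all rows. The exceptions were Ndc80, the kinetochore protein that grips microtubules, and Sgol1, which shields centromeric cohesin. Averaged over replicates 2 and 3, the changes ran from 0.37 for Ccnf, the substrate receptor of a ubiquitin ligase, to 1.33 for Hmmr, with a median of 0.87, against 0.00 over all rows. By role, that median was 1.02 in 8 kinesins, 0.93 in 8 spindle and cytokinesis proteins and 0.86 in 4 chromosome proteins. It was 0.85 in 9 checkpoint and kinetochore proteins and 0.84 in 8 cyclins and CDK1 regulators. In 3 genes grouped under the anaphase-promoting complex (Cdc20, Ube2c and Fam64a) it was 0.80. In 6 genes of the Aurora and polo kinases and passenger complex it was 0.79. The medians of the 7 roles thus lay between 0.79 and 1.02. In a limma fit on replicates 2 and 3 only, 0 members passed (lowest adjusted p = 0.678), where 0% of all rows passed, and 41 of 46 had an unadjusted p under 0.05, against 1517 of 23332 rows.

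Whether replicates 2 and 3 changed differently from replicate 1 was tested as an interaction. In this fit each replicate 1 array stands alone in its group. The error (4 residual degrees of freedom) therefore comes from replicates 2 and 3 only and was assumed to hold for replicate 1. The change in replicates 2 and 3 minus that in replicate 1 at Post-24hr had a median of 1.06 and was above 0 in 45 of 46 members. The exception was Ube2c, the ubiquitin-conjugating enzyme of the anaphase-promoting complex, at -0.22 ± 0.42 (SE). The widest values were 1.90 ± 0.63 for Hmmr and 1.75 ± 0.54 for Nuf2, a partner of NDC80 at the kinetochore (SE). No member passed (limma, lowest adjusted p = 0.894), where 0% of all rows passed; 16 of 46 members and 1261 of 23332 rows had an unadjusted p under 0.05. At End and Post-2hr the same interaction had medians of -0.05 and 0.21, with 0 members called in either (limma; 0 at an unadjusted p under 0.05), and 0% of all rows were called in both.

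The size of the 24 h change rested on single arrays. The median change at Post-24hr was 1.12 without Post-24hr replicate 1, but 0.16 without Post-24hr replicate 2 and 0.26 without Post-24hr replicate 3. For Hmmr it was 1.67, 0.12 and 0.32 without Post-24hr replicate 1, 2 or 3, and for Kif20b 1.19, 0.35 and 0.54. The median was 0.22 without Control replicate 1, where Mki67 was 0.39 and Hmmr 0.37, and it stayed between 0.52 and 0.73 without any of the other 8 arrays.

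**Figure D3:**
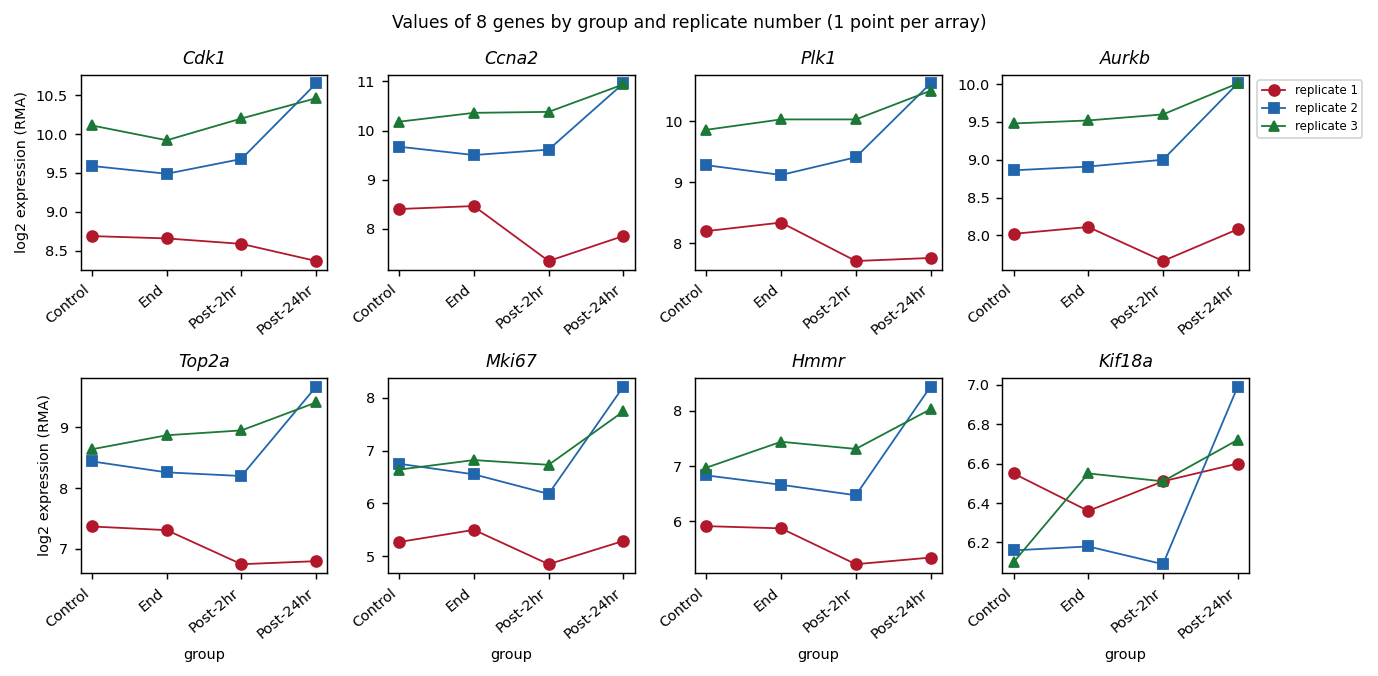
Each panel is 1 gene and each point 1 array, with the group on the horizontal axis, the log2 expression value on the vertical axis and a line for each replicate number. In 7 of the 8 panels the replicate 1 line lies below the other 2 at every harvest, and in all 8 the replicate 2 and 3 lines have their highest point at Post-24hr. In Kif18a the lines cross.

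At the earlier harvests the members changed little. End minus Control had a median of 0.06 over the members, with 32 of 46 higher, and Post-2hr minus Control had a median of -0.06, with 16 of 46 higher. The direction at Post-2hr was not stable: the median was 0.02, with 27 of 46 higher, in replicates 2 and 3 only, and 0.35 with array weights. Those weights were highest for Control replicate 2 and Post-2hr replicate 3, arrays of different replicate number. In limma 0 members passed in either comparison, where 0% of all rows passed at End and 0.0171% at Post-2hr; 0 members had an unadjusted p under 0.05 in either, and an ordinary linear model also called 0. Within the replicate numbers, End was higher than Control in 31 members in replicate 1 (52.3% of all rows) and in 39 in replicate 3 (53.8%), and lower in 34 in replicate 2 (44.3%). Post-2hr was lower than Control in 38 members in replicate 1 (53.2% of all rows) and in 33 in replicate 2 (58.2%), and higher in 40 in replicate 3 (49.8%).

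The members with the widest changes at these times moved within the spread. Kif23, a kinesin of the central spindle, read 8.01, 8.66 and 9.34 at End and 7.46, 8.63 and 9.19 in Control, a change of 0.25 ± 0.83 (SE). Ndc80 read 6.25, 6.39 and 7.11 at End and 6.09, 6.45 and 6.57 in Control, a change of 0.21 ± 0.41 (SE). Cdc25c, the phosphatase that switches CDK1 on, read 5.46, 5.60 and 6.22 at End and 5.08, 5.70 and 5.93 in Control, a change of 0.19 ± 0.48 (SE). In all 3 genes the End and Control arrays overlapped. Kif2c, a kinesin that takes microtubules apart at centromeres, read 5.85, 7.43 and 8.39 at Post-2hr and 6.66, 7.75 and 8.37 in Control, a change of -0.37 ± 0.87 (SE). Nusap1, which binds spindle microtubules, read 6.67, 7.80 and 8.78 at Post-2hr and 7.44, 8.25 and 8.58 in Control, a change of -0.34 ± 0.70 (SE). Ccna2, cyclin A2, read 7.34, 9.61 and 10.38 at Post-2hr and 8.40, 9.67 and 10.18 in Control, a change of -0.31 ± 0.99 (SE). Here replicates 1 and 2 were lower after shear in each gene, with Ccna2 in replicate 2 nearly level (-0.06). Replicate 3 was higher in each, by only 0.02 in Kif2c.

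Between the sheared groups, the mean at Post-24hr was higher than at Post-2hr in all 46 members, with a median of 0.55, and higher than at End in all 46, with a median of 0.47; these comparisons share the Post-24hr arrays. In limma 0 members passed in either, where 0% and 0% of all rows passed, and 1 and 2 members had an unadjusted p under 0.05. Within the numbers, Post-24hr was higher than Post-2hr in 27 of 46 members in replicate 1 (51.8% of all rows, median 0.05), in 46 in replicate 2 (58.5%, median 1.23) and in 46 in replicate 3 (51.5%, median 0.48). The same 27 were thus higher in all 3 numbers, against 19.9% of all rows, a count that replicate 1 alone decides. Set against End, Post-24hr was lower in 37 of 46 members in replicate 1 (50% of all rows, median -0.33) and higher in 46 in replicate 2 (46.5%, median 1.20) and in 44 in replicate 3 (48.5%, median 0.48). Replicate 1 was therefore mostly lower at Post-24hr than at End or in Control. Against Post-2hr its count of higher members, 27 of 46, lay near the 51.8% of all rows. The numbers were not taken as pairing the Post-2hr and Post-24hr arrays. Post-2hr minus End had a median of -0.11, with 0 members called, 0 with an unadjusted p under 0.05, and 0.0257% of all rows called. It was lower in 41 members in replicate 1 (53% of all rows, median -0.35) and in 28 in replicate 2 (59.9%, median -0.03), and higher in 25 in replicate 3 (47.3%, median 0.01).

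A wider difference lay between replicate 1 and replicates 2 and 3. This split was drawn with earlier results of these data known, these genes among them, so its p-values describe the size of the difference against the spread and are no independent support for it. With group means held, the members' median log2 difference, replicate 1 minus replicates 2 and 3, was -1.06, against 0.02 over all rows. In limma, 43 of 46 members were called lower in replicate 1, against 11% of all rows, and 0 were called higher, against 19.5% of all rows. The replicate 1 arrays were all below the other 8 in 39 of 46 members, against 6.33% of all rows. The exceptions were Aurka, Ccnf, Kif18a, Kif20b, Spc25, Tpx2 and Ube2c.

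Among the cyclins, CDK1 and their regulators all 8 measured genes were called lower, with a median of -1.24. Ccna2 had the widest difference of all members: its replicate 1 arrays read 8.40 in Control, 8.46 at End, 7.34 at Post-2hr and 7.85 at Post-24hr. The other 8 arrays had a lowest value of 9.50, a median of 10.27 and a highest of 10.96, so the sets did not overlap, and the difference was -2.19 ± 0.30 (SE, limma, adjusted p = 0.000614), or 4.56-fold. Cdk1 read 8.69 in Control, 8.66 at End, 8.59 at Post-2hr and 8.37 at Post-24hr in replicate 1, against 9.49, 10.02 and 10.65 as the lowest, median and highest of replicates 2 and 3. That difference was -1.44 ± 0.20 (SE, limma, adjusted p = 0.000666), again without overlap, and the next 2 genes did not overlap either. Ccnb2, cyclin B2, ran from 7.25 to 8.38 in replicate 1 and from 8.88 to 10.41 in the others (-1.66 ± 0.26, SE, limma, adjusted p = 0.00138). Cdc25c read 5.08 in Control, 5.46 at End, 5.08 at Post-2hr and 4.94 at Post-24hr in replicate 1, against 5.47, 5.87 and 7.06 as the lowest, median and highest of the others (-0.91 ± 0.23, SE, limma, adjusted p = 0.0155). Ccnf had the narrowest difference of the genes called. Its replicate 1 arrays ran from 6.76 to 6.95 and the other 8 from 6.86 to 7.48, so the sets overlapped (-0.26 ± 0.08, SE, limma, adjusted p = 0.0317).

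Of the Aurora and polo kinases and the passenger complex, 5 of 6 were called lower, with a median of -0.79. Plk1 read 8.20 in Control, 8.34 at End, 7.71 at Post-2hr and 7.76 at Post-24hr in replicate 1, against 9.12, 9.94 and 10.62 as the lowest, median and highest of the others. This was a difference of -1.85 ± 0.28 (SE, limma, adjusted p = 0.000975), or 3.62-fold, with no overlap. Aurkb ran from 7.66 to 8.11 in replicate 1 and from 8.86 to 10.01 in replicates 2 and 3 (-1.45 ± 0.19, SE, limma, adjusted p = 0.000539). Tpx2 ran from 8.27 to 8.78 in replicate 1 and from 8.57 to 9.69 in replicates 2 and 3, which overlap (-0.48 ± 0.14, SE, limma, adjusted p = 0.0273). Aurka, Aurora kinase A of the centrosome, did not pass: it ran from 8.18 to 8.75 in replicate 1 and from 8.29 to 9.54 in the others (-0.62 ± 0.22, SE, limma, adjusted p = 0.0573).

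The kinesins held both ends of the range, with 6 of 8 called lower and a median of -1.54. Kif2c ran from 5.85 to 6.73 in replicate 1, against 7.43 to 9.24 in replicates 2 and 3 (-1.87 ± 0.29, SE, limma, adjusted p = 0.0013). Kif23 ran from 6.81 to 8.01 in replicate 1, against 8.63 to 9.88 (-1.76 ± 0.31, SE, limma, adjusted p = 0.00233). Neither gene had any overlap. Kif18a was the only member with a higher mean in replicate 1: it read 6.55 in Control, 6.36 at End, 6.51 at Post-2hr and 6.60 at Post-24hr, against 6.09, 6.35 and 6.99 as the lowest, median and highest of the others. Its difference was 0.09 ± 0.13 (SE, limma, adjusted p = 0.624), inside the spread. Kif20b lay between 6.20 and 6.38 in replicate 1 and between 6.23 and 7.88 in the others (-0.52 ± 0.22, SE, limma, adjusted p = 0.112).

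All 8 genes of spindle assembly and cytokinesis were called lower, with a median of -1.28. Anln, the anillin of the contractile ring, had the lowest p of the members (-1.07 ± 0.09, SE, limma, adjusted p = 5.82e-05); it ran from 8.72 to 9.52 in replicate 1 and from 9.89 to 10.79 in the others. Hmmr ran from 5.22 to 5.91 in replicate 1 and from 6.47 to 8.44 in the others (-1.69 ± 0.30, SE). Nusap1 ran from 6.67 to 7.44 in replicate 1 and from 7.80 to 9.45 in the others (-1.48 ± 0.25, SE). None of the 3 overlapped. The 9 checkpoint, kinetochore and centromere genes were all called lower, with a median of -0.88; the checkpoint kinase Bub1 ran from 6.28 to 6.90 in replicate 1 and from 7.30 to 8.93 in the others. Ndc80 ran from 5.87 to 6.25 in replicate 1 and from 6.39 to 7.51 in the others (-0.78 ± 0.19, SE).

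The 4 chromosome genes were all called lower, with a median of -1.34. Top2a ran from 6.75 to 7.37 in replicate 1 and from 8.20 to 9.67 in the others (-1.75 ± 0.26, SE, limma, adjusted p = 0.00092). Mki67 ran from 4.85 to 5.50 in replicate 1 and from 6.18 to 8.21 in the others (-1.72 ± 0.22, SE, limma, adjusted p = 0.000479). The 3 genes grouped under the anaphase-promoting complex (Cdc20, Ube2c and Fam64a) were all called lower, with a median of -0.96. Cdc20 ran from 7.65 to 7.89 in replicate 1 and from 8.23 to 9.22 in the others (-0.87 ± 0.16, SE, limma, adjusted p = 0.00284), and Top2a, Mki67 and Cdc20 all separated without overlap.

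**Figure D4:**
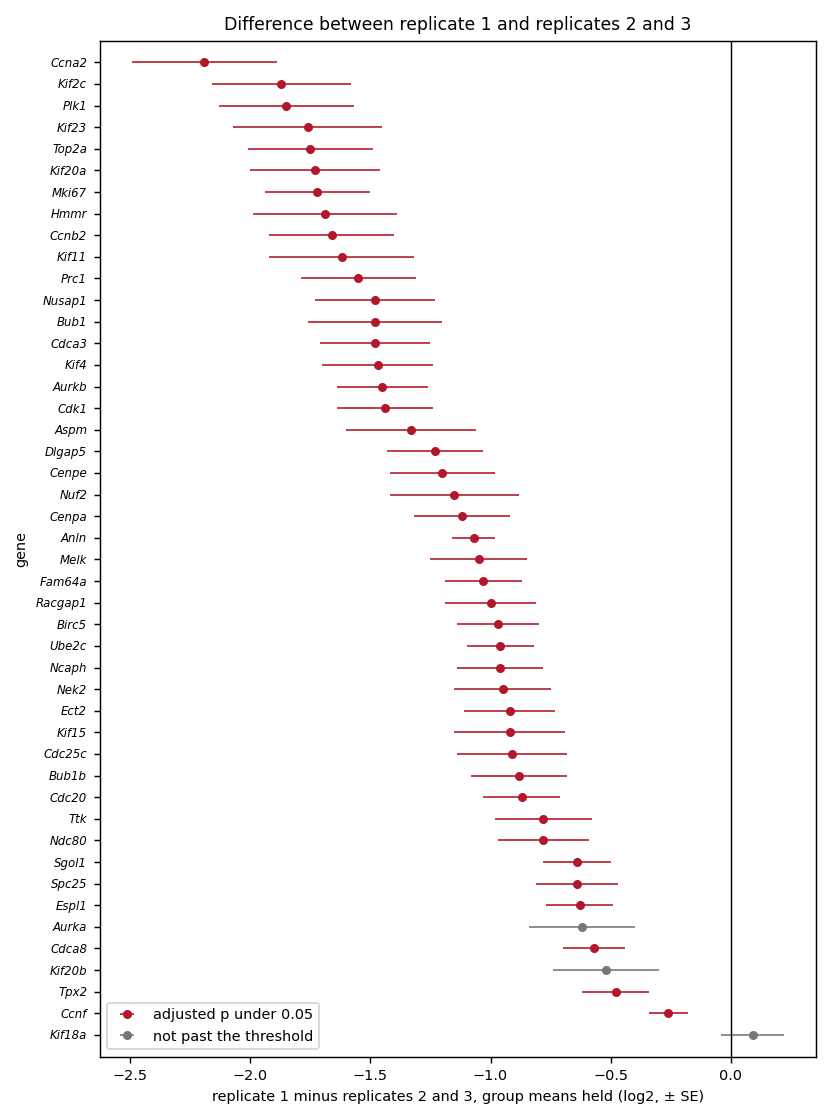
Each row is a gene, and the point is its log2 difference, replicate 1 minus replicates 2 and 3 with group means held (± SE of the limma fit). Red points passed an adjusted p of 0.05 (43 genes, all left of 0), and grey points did not (Aurka, Kif20b and Kif18a).

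The gap was present at each harvest and widest at the last. Replicate 1 minus the mean of replicates 2 and 3 had a median of -0.86 in Control, -0.73 at End, -1.12 at Post-2hr and -1.85 at Post-24hr. Without the Post-24hr arrays, a setting chosen after seeing the data, the median difference over the other 3 groups was -0.87, and 37 of 46 members were called lower, against 8.88% of all rows; Ccnf, Ndc80 and Tpx2 were among those no longer called.

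Replicates 2 and 3 also differed from each other before the last harvest. Replicate 3 was above replicate 2 in 42 of 46 members in Control (44.4% of all rows), in 45 at End (42%) and in 46 at Post-2hr (57.9%), with medians of 0.35, 0.58 and 0.59. At Post-24hr it was above in 7 of 46 (42.2% of all rows), with a median of -0.21. Across the groups the difference was tested after seeing the data, with group means held. Over all 12 arrays the members' median, replicate 3 minus replicate 2, was 0.32, and 0 of 46 passed (limma, lowest adjusted p = 0.662; 3 at an unadjusted p under 0.05), against 0.00429% of all rows called higher; an ordinary linear model also called 0. Without the Post-24hr arrays the median was 0.50 and again 0 passed (limma, lowest adjusted p = 0.601), against 0% of all rows, while 41 of 46 members and 1152 of 23332 rows had an unadjusted p under 0.05.

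Other cell cycle genes were lower in replicate 1 by smaller amounts. Of all rows, 11% were called lower and 19.5% higher. Of 72 further mitotic genes 53 were measured, with a median of -0.44; 31 were called lower and 1, the CDK1-inhibiting kinase Wee1, higher (0.49 ± 0.13, SE). Iqgap3 (-1.72) and the mitotic kinase Pbk (-1.29) had the widest values among them. Of 42 S phase genes 38 were measured, with a median of -0.42; 20 were called lower and 1, the dUTPase gene Dut, higher. Ccne2, cyclin E2 (-1.56), Uhrf1, which maintains DNA methylation (-1.49), and the repressor E2f8 (-1.48) led this list. At Post-24hr, 49 of 53 further mitotic genes and 28 of 38 S phase genes had a higher mean than in Control, with medians of 0.32 and 0.11, and 0 of either list passed (limma, with 4 and 1 at an unadjusted p under 0.05). In replicates 2 and 3 those medians were 0.56 and 0.27, against -0.07 and -0.28 in replicate 1.

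**Figure D5:**
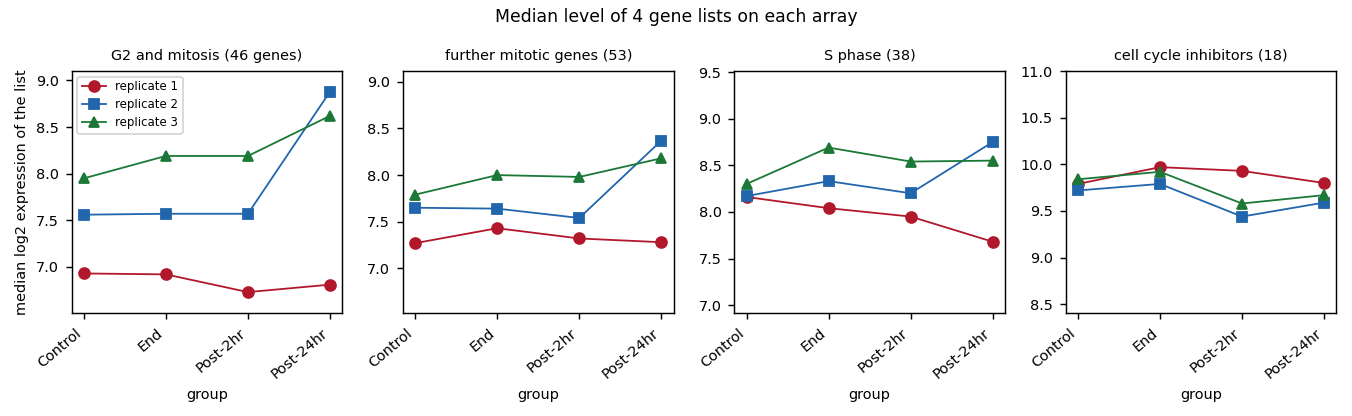
Each panel is a gene list and each point the median log2 value of its measured genes on 1 array, with a line for each replicate number; all panels span the same number of log2 units. The replicate 1 line is lowest at every harvest in the first 3 panels, where it ends at 6.81, 7.28 and 7.68, and for the cell cycle inhibitors it is not lowest at any harvest. In Control of the S phase panel it is nearly level with replicate 2 (8.16 and 8.17).

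Genes that restrain the cycle were called in both directions in replicate 1. Of 18 measured, 5 were called higher and 2 lower, against 19.5% and 11% of all rows. With so few genes, these counts do not set the list apart from all rows. Gadd45a, a stress-induced growth arrest gene, read 11.26 in Control, 10.59 at End, 11.39 at Post-2hr and 11.62 at Post-24hr in replicate 1, and it ran from 8.73 to 9.42 in the others (2.07 ± 0.09, SE, limma, adjusted p = 2.55e-06). The CDK inhibitor genes Cdkn2b (0.42), Cdkn1a (0.33), Cdkn1b (0.31) and Cdkn2a (0.31) were the other 4 called higher, and Btg2 (-0.42) and Ccng2 (-0.52) were the 2 called lower. Among 7 G1 genes, Myc (1.59 ± 0.16) and Cdk4 (0.21 ± 0.05) were called higher, and Cdk6 (-0.83 ± 0.08), Ccnd1 (-0.73 ± 0.07), Ccnd3 (-0.66 ± 0.09) and Ccnd2 (-0.34 ± 0.06, SE) lower.

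Genes outside the cell cycle also differed by the same split, and their part in the result was not tested. Beside each count below stand the shares of all rows, 11% called lower and 19.5% called higher in replicate 1. Of 11 podocyte genes 6 were called lower and 1 higher in replicate 1, and their median ran from 8.89 to 9.39 on the replicate 1 arrays and from 10.50 to 11.14 on the others. Podxl, the anionic surface protein of foot processes, read -1.19 ± 0.10, and the phospholipase gene Plce1 -2.33 ± 0.15 (SE). The list median was the level of Podxl on the replicate 1 arrays and of Plce1 on the others. Its gap therefore does not measure a shift of the whole list. Cd2ap was higher in replicate 1, from 12.56 to 12.68 against 12.14 to 12.52 in the others. Nphs1 ran from 6.55 to 6.65 in replicate 1 and from 6.55 to 6.89 in the others. Of 12 γ-interferon response genes 5 were called lower, Ifit1 (-1.65), Gbp2 (-1.58) and Cxcl10 (-1.20) the furthest, and 3 higher, Psmb9 (0.52), Tap1 (0.51) and Psmb8 (0.39). Their median ran from 9.90 to 10.64 in replicate 1 and from 10.56 to 10.81 in the others. In the 7 macrophage genes, Cd68 was called higher (2.20 ± 0.12) and so was Cd14 (0.51 ± 0.11), while Csf1r was called lower (-1.43 ± 0.11, SE); 4 of these 7 genes had means under the lower quartile. The list median ran from 5.08 to 5.18 in replicate 1 and from 5.09 to 5.38 in the others. Of 7 mesangial or fibroblast genes 3 were called lower (Pdgfrb at -0.53, Col1a1 at -0.31 and Acta2 at -0.18) and Des higher (0.58); their median ran from 6.94 to 7.11 in replicate 1 and from 6.85 to 7.37 in the others. Of 6 tubule genes Cdh16 (-1.67 ± 0.15, SE) and Umod (-0.20 ± 0.06, SE) were called lower, and their median ran from 6.02 to 6.19 in replicate 1 and from 6.00 to 6.29 in the others. Of the 8 endothelial genes 0 were called (limma; 1 at an unadjusted p under 0.05), and their median ran from 5.47 to 5.61 in replicate 1 and from 5.39 to 5.69 in the others.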

How the data were processed

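Gene expression was measured in 12 samples of 1 mouse podocyte line, 4 groups of 3, on Affymetrix exon arrays. The deposited table holds log2 expression values per gene-level row, which the authors normalized by RMA, with Partek also named, per the submitters' processing notes; for their versions and settings the sources used here give nothing. RMA makes array distributions alike, so a shift common to all genes would not be seen. All columns were assigned to samples (0 not used), and no value was missing in 23332 rows. Of these rows 14996 carry 1 gene symbol in the platform annotation, 1019 several and 7317 none; none were named from a row with several.

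Groups were compared with limma 3.58.1 in R 4.3.3 on all 12 arrays and all rows (8 residual degrees of freedom), without a replicate block, with Benjamini-Hochberg adjustment over all rows and a threshold of 0.05. The difference of replicate 1 from replicates 2 and 3, and its interaction with the group, were fitted on the same table, as was, after seeing the data, replicate 3 minus replicate 2. No intensity filter was used. The fit was tested on simulated data. The members, the lists and the replicate 1 split were chosen with earlier results of these data known. Every listed gene may be named; per-array values are given for a fixed set of 8 genes where measured, and for the 3 with the largest change in each comparison and the 3 largest and smallest replicate 1 differences. Other genes are the 3 furthest of their list, or all called in 1 direction where at most 5. The labels' replicate numbers were taken as pairing sheared with Control arrays. Deviations of same-numbered arrays from their group means correlated at 0.22 to 0.72 in all 9 pairs with Control. Between sheared groups the 9 correlations were 0.03 to 0.59, with 0.03 for Post-2hr and Post-24hr replicate 2. The numbers were therefore not taken as pairing those 2 groups. Arrays of unlike number were not correlated, and replicate 1 stood apart in every group. These correlations therefore cannot show that the numbers 2 and 3 pair arrays. The number of arrays, 3 per group, limits the precision. Alternatives covered the block, array weights, centring, quantile normalization, row filters, the variance model, a gene's rows and each array left out.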

Additional observations from a re-analysis of the deposited data

How the results depend on the processing

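No member was called in any comparison with Control or between sheared groups under any alternative, the replicate block as 3 levels or as a random effect (correlation 0.326) included; the blocked median at Post-24hr was 0.52, and the block changed no other call. Of the medians, only those at Post-2hr changed sign outside the omission of single arrays. Post-2hr minus Control was 0.02 in replicates 2 and 3 only and 0.35 with array weights, which gave 0.26 for Post-2hr minus End. With those weights the test for any difference among the groups called 1 of 46 members (Kif18a), against 11.6% of all rows. The weights were 5.86 for Control replicate 2, 5.27 for Post-2hr replicate 3 and 0.34 to 1.49 for the other arrays. The weighted Control and Post-2hr means thus rested mostly on 1 array each, of different replicate number. How far this accounts for the weighted changes was not tested. Post-2hr minus Control of Ccna2 was 0.07 in replicates 2 and 3 only and 0.49 with array weights, which also gave 0.41 for Kif2c and 0.33 for Nusap1. Omitting 1 array at a time, the median ran from -0.24 to 0.30 for End minus Control, from -0.34 to 0.30 for Post-2hr minus Control and from -0.46 to 0.24 for Post-2hr minus End. It ran from 0.16 to 1.12 for Post-24hr minus Control, from 0.07 to 1.06 for Post-24hr minus End and from 0.22 to 1.16 for Post-24hr minus Post-2hr. The interaction median ran from -0.30 to 0.20 at End, from -0.01 to 0.51 at Post-2hr and from 0.86 to 1.22 at Post-24hr. At Post-24hr minus Control, Mki67 ran from 0.29 to 1.76, Hmmr from 0.12 to 1.67, Kif20b from 0.35 to 1.19 and Tpx2 from 0.47 to 0.92. Other genes ran from -0.23 to 0.63 (Kif23), -0.06 to 0.37 (Cdc25c) and -0.05 to 0.38 (Ndc80) at End, and from -0.94 to 0.58 (Ccna2), -0.96 to 0.32 (Kif2c) and -0.85 to 0.20 (Nusap1) at Post-2hr, each minus Control. Kif18a in replicate 1 minus replicates 2 and 3 ran from -0.02 to 0.21. The count of members called in the replicate 1 difference ran from 40 to 44 with 1 array omitted and from 35 to 44 otherwise, where 35 is all members left above the 50th percentile; its median stayed between -1.16 and -0.87 throughout. Aurka passed in 7 of these other settings and Ccnf, Ndc80 and Tpx2 did not in at least 1. Replicate 3 minus replicate 2 called 0 members in all settings, with a median of 0.20 to 0.58 with 1 array omitted. The low signal of 4 members in replicate 1 and the 3 arrays a group limit these values.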
